A study of Meleagris gallopavo with 12 samples.

Results

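The genes described here encode 5 enzymes of catecholamine and tetrahydrobiopterin synthesis: TH, DBH, GCH1, PTS and QDPR. They were found by name: a chicken oligonucleotide probe belonged to a gene when the array's description of it ended with that gene's symbol in parentheses. Each gene had 1 such probe, so 5 of the 20460 gene probes on the array, and 5 of the 5536 genes named by symbol, are described: RIGG08385 for TH, RIGG11392 for DBH, RIGG16719 for GCH1, RIGG04881 for PTS and RIGG20281 for QDPR. The rule used no measured value. All 5 probes were measured on all 6 arrays and were among the 18012 probes tested.

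Tissue came from the premammillary nucleus, a cell group of the caudal hypothalamus, of adult turkey hens, and each of the 12 samples was a pool from 6 hens. Short-day photosensitive hens (SDPS) lived on 6 h of light and 18 h of darkness and were able to respond to longer days. Long-day photosensitive hens (LDPS) received 16 h of light and 8 h of darkness for 10 days. Long-day photorefractory hens (LDPR) had stayed on long days through a full reproductive cycle and molt, after which long days no longer stimulate reproduction. Each group had 4 pools. The sources used here give neither the hours of the LDPR schedule nor the time of day at sampling, and LDPR hens differ from LDPS hens in time on long days as well as in reproductive state. A pair of pools from different groups shared each array, 1 labelled with Alexa Fluor 555 and the other with Alexa Fluor 647, and each pair of groups met on 2 arrays of opposite dye orientation.

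Catecholamines are made from tyrosine. TH, tyrosine hydroxylase, converts tyrosine to L-DOPA in the rate-limiting step, DDC converts L-DOPA to dopamine, and DBH, dopamine beta-hydroxylase, converts dopamine to noradrenaline. TH works only with the cofactor tetrahydrobiopterin, which tryptophan hydroxylase also needs to make serotonin, the precursor of melatonin. GCH1 carries out the first step of tetrahydrobiopterin synthesis from GTP, PTS the next, and QDPR recycles the cofactor after each round of use. In turkeys, neurons of the premammillary nucleus contain both dopamine and melatonin and have been linked to the measurement of day length. In birds, as in mammals, cell bodies of noradrenaline neurons lie mainly in the brainstem, and their fibres reach the hypothalamus.

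The 5 probes differed in how far they stood above the empty spots of the array. In 12 of 12 channels all 5 exceeded the 95th percentile of the empty spots, as did 88.1% of the probes tested. The TH probe was the dimmest, at 1.29 to 4.26 times that percentile, and was brighter than 19.4% of tested probes. The DBH probe lay at 2.02 to 11.2 times the empty-spot percentile, the GCH1 probe at 8.06 to 31.1 times, the PTS probe at 9.1 to 29.6 times and the QDPR probe at 13.6 to 39.2 times. These values describe probes, and since turkey RNA was hybridised to chicken sequence they give no order of the genes' transcript levels. On 3 of the 6 arrays the authors' quality mark of the TH spot was 0, a mark shared by 9.56% of probes on 3 or more arrays. Over all probes, the median amplitude of a channel ran from 92.65 to 276.51. LDPR pool 2 had the lowest share of probes that exceeded the empty spots, 79.32% against 91.59% to 96.58% in the other pools. 1 array, carrying LDPS pool 3 and LDPR pool 3, was quantified on a later day than the other 5.

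TH was higher in both long-day groups than in SDPS hens by the same amount, but neither difference passed after adjustment. The question was whether the first enzyme of dopamine synthesis follows day length or reproductive state. Within arrays, the normalised log2 ratio of LDPS to SDPS was 0.13 and 0.26, and that of LDPR to SDPS was 0.20 and 0.34. All 4 arrays that set long against short days therefore gave more normalised TH signal to the long-day pool, in both dye orientations. The 2 arrays that set LDPR against LDPS gave -0.19 and 0.12, on either side of 0. Set against the empty-spot percentile of its own channel, TH went the other way on the arrays of LDPR and SDPS. It was at 2.51 in LDPR pool 1 against 2.76 in SDPS pool 3, and at 1.29 in LDPR pool 2 against 1.59 in SDPS pool 4. In LDPS it stayed higher, at 3.76 in pool 1 against 3.40 in SDPS pool 1, and at 4.26 in pool 2 against 3.65 in SDPS pool 2.

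The fit over all arrays placed TH at a log2 fold change of 0.23 (SE 0.096, 95% interval 0.017 to 0.446) in LDPS against SDPS, a 1.17-fold difference, with an unadjusted p of 0.0373 and a limma adjusted p of 1. In LDPR against SDPS it was at 0.23 (SE 0.096, 95% interval 0.019 to 0.449), with an unadjusted p of 0.0357 and a limma adjusted p of 0.502. In LDPR against LDPS it was at 0.00 (95% interval -0.212 to 0.217), an interval as wide as that of the other comparisons. These comparisons share pools and are not independent of each other. The mean of the long-day groups against SDPS, a contrast chosen with earlier results known, was 0.23 (SE 0.083, 95% interval 0.047 to 0.419), or 1.18-fold, with an unadjusted p of 0.0194 and a limma adjusted p of 1. By unadjusted p, TH ranked 281 of 18012 probes in that contrast.

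The pool levels of TH did not separate the groups. A level here is the normalised log2 intensity of a channel, and unlike a ratio it carries the brightness of the spot on that array. TH levels in SDPS pools 1 to 4 were 6.71, 6.65, 6.12 and 5.93, with a mean of 6.35 ± 0.387 (SD, n = 4). In LDPS pools they were 6.83, 6.92, 6.55 and 6.27, with a mean of 6.64 ± 0.293 (SD, n = 4). In LDPR pools they were 6.32, 6.27, 6.37 and 6.39, with a mean of 6.34 ± 0.053 (SD, n = 4). The LDPR pools lay close together, inside the range of the SDPS pools and at the low end of the LDPS pools. By mean level LDPR equalled SDPS within 0.02, whereas the ratio within each of the 2 arrays that held both groups was above 0. The SDPS pools that shared arrays with LDPR pools, pools 3 and 4, had the lowest TH levels of their group.

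**Figure D1:**
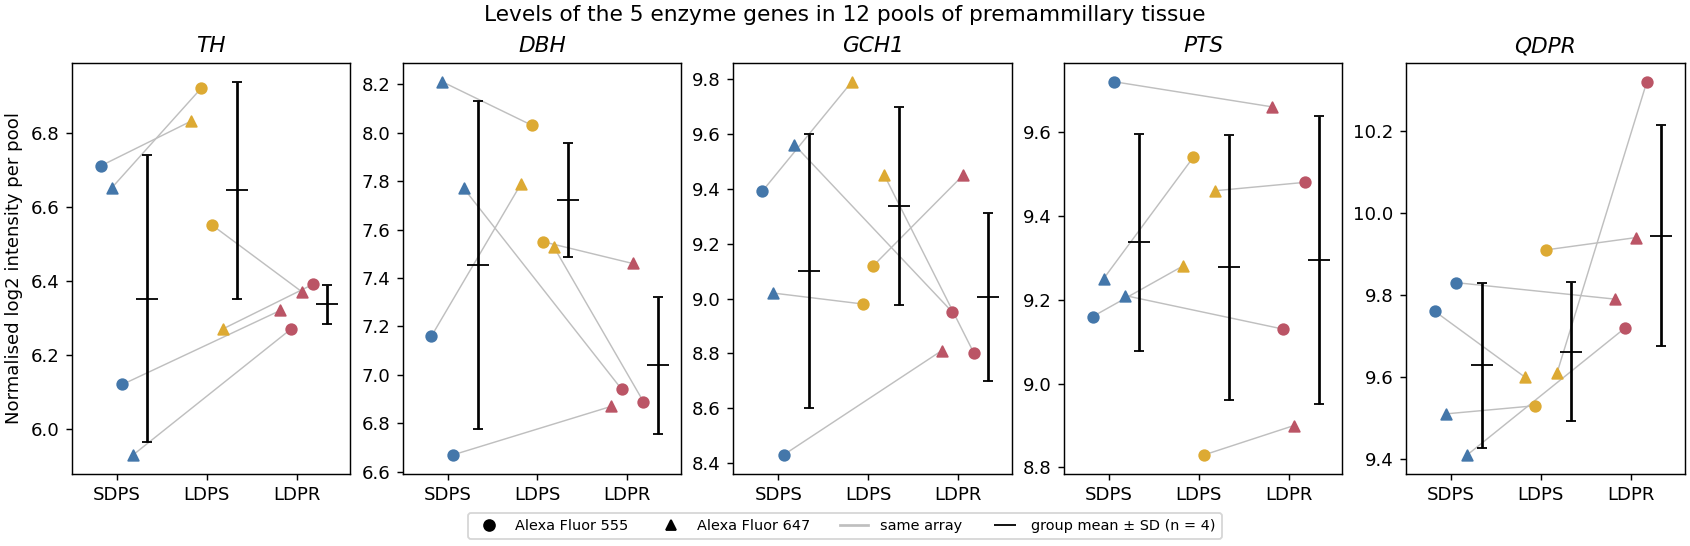
Normalised log2 intensity (y axis) of each enzyme gene in the 12 pools by group (x axis), with circles for Alexa Fluor 555, triangles for Alexa Fluor 647, grey lines joining pools on 1 array, and bars for the group mean and SD of 4 pools. The 4 lines that join SDPS to long-day pools all climb for TH, and the DBH levels of LDPS pools (7.53 to 8.03) and LDPR pools (6.87 to 7.46) do not overlap.

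DBH was 1.34-fold lower in LDPR than in LDPS hens, the largest fitted difference among the 5 genes, and the pool levels of these groups did not overlap, but the difference did not pass after adjustment. DBH levels in SDPS pools 1 to 4 were 7.16, 8.21, 6.67 and 7.77, with a mean of 7.45 ± 0.677 (SD, n = 4). In LDPS pools they were 7.79, 8.03, 7.55 and 7.53, with a mean of 7.72 ± 0.236 (SD, n = 4). In LDPR pools they were 6.87, 6.94, 7.46 and 6.89, with a mean of 7.04 ± 0.282 (SD, n = 4). Every LDPR pool lay below every LDPS pool, LDPR pool 3 by the smallest margin, and the SDPS pools spanned both groups. Levels carry the brightness of the spot on each array, and LDPR pools 1 and 2 shared no array with an LDPS pool. On the array of LDPR pool 1, at 6.87, SDPS pool 3 was lower still, at 6.67. LDPS pool 3 and LDPR pool 3 shared an array and were at 7.55 and 7.46. Levels are also not corrected for a probe's response to the dye. SDPS pools 2 and 4, at 8.21 and 7.77, were labelled with Alexa Fluor 647, and pools 1 and 3, at 7.16 and 6.67, with Alexa Fluor 555. In LDPS and LDPR pools the levels did not order by dye in this way. DBH was the only 1 of the 5 genes with such a separation, against 2.15% of the 16748 probes measured on all arrays in this comparison. None of the 5 separated LDPS from SDPS pools, where 0.985% of probes did, or LDPR from SDPS pools, where 0.979% did.

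The fitted log2 fold change of DBH in LDPR against LDPS was -0.42 (SE 0.106, 95% interval -0.66 to -0.184), with an unadjusted p of 0.00286 and a limma adjusted p of 0.174. It therefore did not pass, and a fit of the separate channels, at -0.449 with a limma adjusted p of 0.0396, did pass. That fit called 560 of 16748 probes in this comparison, against 3 of 18012 in the main fit. In LDPR against SDPS, DBH was at -0.26 (SE 0.106, unadjusted p = 0.0366, limma adjusted p = 0.505), and with the array that held LDPR pool 2 left out it was at -0.139 (unadjusted p = 0.28). In LDPS against SDPS it was at 0.16 (SE 0.106), with a limma adjusted p of 1. The mean of both long-day groups was thus at -0.05 against SDPS.

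The DBH probe also responded to the dye. Its signal was higher with Alexa Fluor 647 than with Alexa Fluor 555 by 0.40 on the log2 scale (limma adjusted p = 0.0149), one of 979 probes (5.44%) with a dye difference that passed. The normalised LDPR to LDPS ratios were -0.09 and -0.64 on the 2 arrays, and -0.49 and -0.24 once the dye term was subtracted. The LDPR to SDPS ratios were 0.20 and -0.83, and -0.20 and -0.44 after subtraction. The LDPS to SDPS ratios were 0.62 and -0.18, and 0.22 on both arrays after subtraction. Ratios to SDPS that had opposite signs on the 2 arrays of a pair thus took 1 sign after subtraction, but the dye term was estimated from these same arrays.

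**Figure D2:**
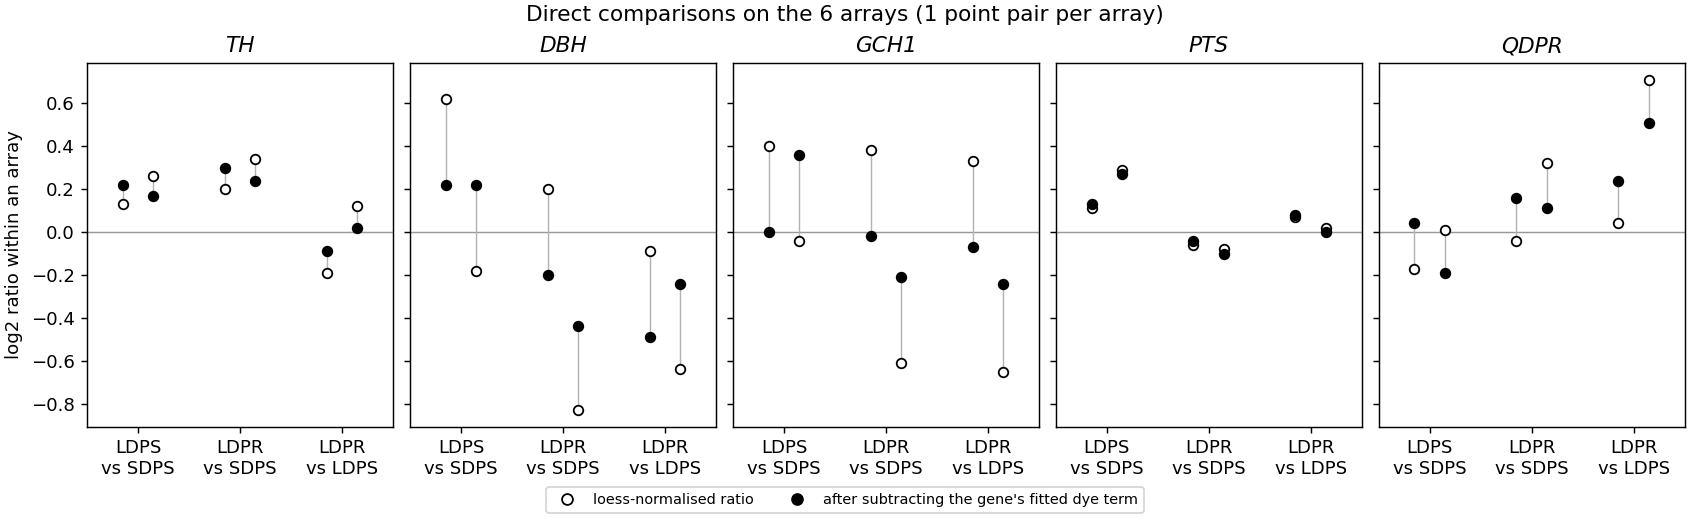
Log2 ratio within an array (y axis) for the 3 pairs of groups (x axis), 2 arrays each; open circles are loess-normalised ratios and filled circles the same ratios after subtraction of the gene's fitted dye term, joined by a line. The TH ratios of long against short days are above 0 on 4 of 4 arrays, while those of DBH and GCH1 shift by 0.40 with the dye.

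Some markers of other cell types were also lower in LDPR than in LDPS. All 3 tested red blood cell genes were lower in LDPR, HBA1 at -0.99 and HBG2 at -0.80, and their mean level ran from 10.3 to 10.98 in LDPS pools and from 9.82 to 10.08 in LDPR pools. Of the 4 tested oligodendrocyte genes 3 were lower, among them CNP at -0.36 and UGT8 at -0.34, and SOX10 was higher at 0.115. The mean level of the 4 ran from 9.8 to 10.26 in LDPS and from 9.46 to 9.71 in LDPR. Of the 5 tested microglia and immune genes 4 were lower, from ITGB2 at -0.76 to C1QA at -0.05, and CD74 was at 0.02. Of the 4 tested pituitary genes 3 were lower, from FSHB at -0.73 to GH1 at -0.12, and POMC was at 0.09. The quality mark was 0 on 6 arrays for ITGB2 and on 5 for CNP. FSHB exceeded the empty spots in 11 of 12 channels. The 5 tested neuron genes lay on both sides of 0, with 2 higher and 3 lower in LDPR and a median of -0.03. Of the 4 tested endothelium and mural cell genes 3 were lower and 1 higher, with a median of -0.11. None of these genes passed after adjustment. The noradrenaline neuron list could be read only through DBH and SLC6A2, the noradrenaline transporter, which was at -0.20 (unadjusted p = 0.0593). The part of these cell types in the DBH difference was not tested. In pooled tissue, fewer cells of a type and less RNA per cell cannot be told apart.

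QDPR, which recycles the cofactor, was 1.25-fold higher in LDPR than in LDPS hens, the opposite direction from DBH, and this difference did not pass after adjustment. QDPR levels in SDPS pools 1 to 4 were 9.76, 9.51, 9.83 and 9.41, with a mean of 9.63 ± 0.201 (SD, n = 4). In LDPS pools they were 9.60, 9.53, 9.91 and 9.61, with a mean of 9.66 ± 0.169 (SD, n = 4). In LDPR pools they were 9.79, 9.72, 9.94 and 10.32, with a mean of 9.95 ± 0.269 (SD, n = 4). LDPR pool 4 was the highest of all 12, and the other LDPR pools lay within or just above the range of LDPS pools, so the groups overlapped.

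The fitted log2 fold change of QDPR in LDPR against LDPS was 0.32 (SE 0.107, 95% interval 0.081 to 0.558), with an unadjusted p of 0.014 and a limma adjusted p of 0.245. The 2 direct ratios were 0.04 and 0.71, and 0.24 and 0.51 after subtraction of the dye term. That term was -0.20 for QDPR (limma adjusted p = 0.14) and was estimated from these same arrays. Without the array that carried LDPR pool 4, the difference was 0.194 with an unadjusted p of 0.168. All 3 tested choroid plexus and ependyma genes were also higher in LDPR than in LDPS, TTR at 2.33 (SE 0.604), TEKT1 at 0.27 and FOLR1 at 0.07. Of them 1, TTR, had an unadjusted p under 0.05, against 13.9% of all probes, and with 3 genes this count is small. TTR levels varied widely, from 5.37 to 7.37 in LDPS pools and from 5.88 to 9.68 in LDPR pools. The mean level of the 3 genes ran from 7.15 to 7.91 in LDPS pools and from 7.31 to 8.67 in LDPR pools, and their part in the QDPR difference was not tested. QDPR was at -0.13 in LDPS against SDPS and at 0.19 in LDPR against SDPS (limma adjusted p = 1 and 0.604).

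GCH1 and PTS, the enzymes of the first steps of cofactor synthesis, had no difference at an unadjusted p under 0.05. GCH1 levels in SDPS pools 1 to 4 were 9.39, 9.02, 8.43 and 9.56, in LDPS pools 9.79, 8.98, 9.12 and 9.45, and in LDPR pools 8.81, 8.95, 9.45 and 8.80. The 3 groups overlapped, and SDPS pool 3 was the lowest of all. The fitted difference of GCH1 in LDPR against LDPS was -0.20 (SE 0.112, 95% interval -0.454 to 0.046), on the same side of 0 as DBH, with a limma adjusted p of 0.445. In LDPS against SDPS it was 0.14 (95% interval -0.114 to 0.386). GCH1 shared the dye response of DBH, at 0.40 (limma adjusted p = 0.0183), and its direct LDPR to LDPS ratios were 0.33 and -0.65 before and -0.07 and -0.24 after subtraction of the dye term.

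PTS levels in SDPS pools 1 to 4 were 9.16, 9.25, 9.72 and 9.21, in LDPS pools 9.28, 9.54, 8.83 and 9.46, and in LDPR pools 9.66, 9.13, 8.90 and 9.48. The groups overlapped throughout, and the 2 pools on the array quantified later, LDPS pool 3 and LDPR pool 3, were the lowest. The fitted differences of PTS were 0.10 in LDPS against SDPS (95% interval -0.142 to 0.335), -0.06 in LDPR against LDPS (95% interval -0.299 to 0.178) and 0.04 in LDPR against SDPS (95% interval -0.202 to 0.275). Its dye term was -0.02, the smallest of the 5.

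Counted together, the 5 genes gave no call after adjustment in any comparison. In LDPS against SDPS 0 of 5 passed at a limma adjusted p under 0.05, as did 0% of all probes, and 1 of 5 had an unadjusted p under 0.05 against 4.33% of all probes. In LDPR against LDPS 0 of 5 passed against 0.0167% of all probes, and 2 of 5 had an unadjusted p under 0.05 against 13.9%. In LDPR against SDPS 0 of 5 passed, as did 0% of all probes, and 2 of 5 had an unadjusted p under 0.05 against 9.37%. For the long-day mean 0 of 5 passed, as did 0% of all probes, and 1 of 5 had an unadjusted p under 0.05 against 4.44%. With 5 genes these counts are small. The median log2 fold change of the 5 was 0.14, -0.06, 0.04 and 0.03 in these 4 comparisons, against -0.009, -0.007, -0.015 and -0.008 over all tested probes.

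A test of any difference among the 3 groups passed for none of the 5. The moderated F test gave DBH an unadjusted p of 0.00898 (limma adjusted p = 0.344), QDPR 0.0409 (0.447), TH 0.0566 (0.483), GCH1 0.229 (0.678) and PTS 0.669 (0.888). Direct ratios from different pools should add to 0 around the loop of 3 groups, and the sum was -0.11 for TH, 0.18 for DBH, 0.14 for GCH1, 0.31 for PTS and 0.16 for QDPR. The smallest unadjusted p of these sums was 0.184, for PTS. Their SEs ran from 0.215 for TH to 0.247 for GCH1. A departure from 0 as large as most fitted differences could therefore go undetected, and the sums do not show that the loop closes.

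**Figure D3:**
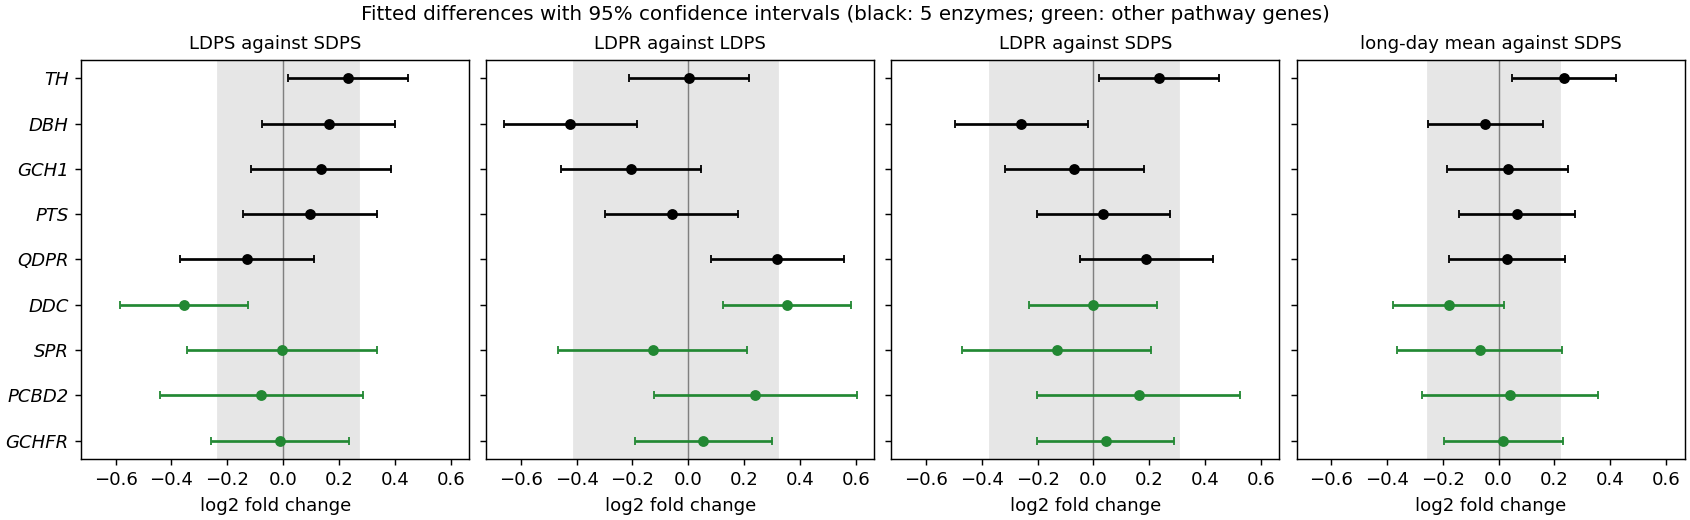
Fitted log2 fold change (x axis) with 95% confidence interval for the 5 enzymes (black) and 4 other genes of both pathways (green) in each comparison; the grey band holds the central 95% of all tested probes. DBH in LDPR against LDPS lies at -0.42, outside the band that ends at -0.409, and TH in the long-day mean at 0.23, outside the band that ends at 0.22. DDC lies further outside in LDPS against SDPS, at -0.36 where the band ends at -0.235. In LDPR against LDPS DDC is at 0.35, where the band ends at 0.321.

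DDC, the enzyme between TH and DBH, had log2 fold changes of the opposite sign to TH in LDPS against SDPS. This gene, named through its description in the array design, was at -0.36 in LDPS against SDPS (SE 0.102, 95% interval -0.585 to -0.127, unadjusted p = 0.00618, limma adjusted p = 1). In LDPR against LDPS it was at 0.35 (SE 0.102, unadjusted p = 0.00644, limma adjusted p = 0.211), and in LDPR against SDPS at 0.00. DDC levels in SDPS pools 1 to 4 were 7.40, 7.91, 7.22 and 7.02, in LDPS pools 7.32, 7.37, 7.06 and 7.88, and in LDPR pools 7.26, 6.88, 7.74 and 7.99. The levels overlapped, with means of 7.39 in SDPS, 7.41 in LDPS and 7.47 in LDPR pools. By mean level LDPS was thus not below SDPS. The dye term of DDC was 0.20 (limma adjusted p = 0.131). Within arrays, both LDPS to SDPS ratios (-0.08 and -0.54) were below 0 and both LDPR to LDPS ratios (0.68 and 0.12) above it. The LDPS pools enter both differences, so these are not independent. Of 8 tested astrocyte and tanycyte genes, 5 were lower and 3 higher in LDPS than in SDPS, and 4 of those lower had an unadjusted p under 0.05, against 4.33% of all probes. In LDPR against LDPS 4 were higher and 4 lower, with SLC1A3 at 0.37, VIM at 0.32 and AQP4 at 0.30 but S100B at -0.29 (unadjusted p = 0.03). The mean level of the 8 ran from 9.86 to 10.29 in SDPS, 9.66 to 10.2 in LDPS and 9.66 to 10.11 in LDPR pools, and these ranges overlapped. Their part in the DDC values was not tested.

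For the rest of cofactor synthesis, of 8 further genes listed, 4 were on the array and 3 were tested. The tested genes were SPR, which completes tetrahydrobiopterin synthesis, PCBD2, which takes part in its regeneration, and GCHFR, which regulates GCH1. SPR, like DDC, was named through its description in the array design and not by a symbol. GCHFR had 2 tested probes, and the brighter stood for the gene. None of these genes had an unadjusted p under 0.05 in any comparison, and their log2 fold changes ran from -0.08 to 0.00 in LDPS against SDPS and from -0.13 to 0.24 in LDPR against LDPS. The other GCHFR probe, RIGG12256, was at -0.16 (unadjusted p = 0.167) and 0.02 in these comparisons. Of the other enzymes that use the cofactor, TPH2, the neuronal tryptophan hydroxylase, was kept on 0 arrays and above empty spots in 6 channels, so it was not tested.

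Of 11 listed genes that store, take back or break down catecholamines, 5 were tested and 0 passed after adjustment. SLC18A2, the vesicular monoamine transporter, was at 0.28 in LDPR against SDPS with an unadjusted p of 0.0848.

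Kinases, phosphatase subunits and 14-3-3 proteins that act on TH protein had mostly positive differences in LDPR against LDPS. The list also held a pair of transcription factors, which are left out of the counts here. Of the other 26 genes, 14 were tested, 13 had a positive log2 fold change in LDPR against LDPS, and their median was 0.17, against -0.007 over all probes. None passed after adjustment, and 3 of 14 had an unadjusted p under 0.05, against 13.9% of all probes, a small count near that share. They were YWHAZ, a 14-3-3 protein, at 0.41 (limma adjusted p = 0.168), PRKACB, a catalytic subunit of protein kinase A, at 0.31 and CAMK2D, a calcium/calmodulin-dependent kinase, at 0.24. In LDPS against SDPS 12 of the 14 were negative, with a median of -0.10. The same LDPS pools enter both comparisons, so their opposite signs are not independent. In LDPR against SDPS 12 of the 14 were positive, with a median of 0.08. These proteins act in many cells and are not particular to TH neurons.

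Among transcription factors used by dopamine or noradrenaline neurons, 2 of 7 tested genes had an unadjusted p under 0.05 in LDPR against LDPS, against 13.9% of all probes, and they lay on opposite sides of 0. With 7 genes this count is small. ISL1 was at 0.57 (unadjusted p = 0.00285, limma adjusted p = 0.174), and at -0.49 in LDPS against SDPS. PAX6 was at -0.74 (unadjusted p = 0.000235, limma adjusted p = 0.146), and at 0.36 in LDPS against SDPS and -0.38 in LDPR against SDPS. With the array that held LDPS pool 2 left out, LDPS against SDPS gave 0.232 for PAX6 (unadjusted p = 0.154) and -0.316 for ISL1 (unadjusted p = 0.0707). With the array that held LDPR pool 2 left out, PAX6 in LDPR against SDPS was at -0.155 (unadjusted p = 0.229). Both factors are also used by other neurons.

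Of 8 listed markers of dopamine-melatonin neurons 5 were tested, namely TH, DDC, ASMT, OPN4 and SLC18A2. All pools came from the same tissue, so these markers cannot check its label. In LDPS against SDPS 3 were positive and 2 negative, from -0.36 for DDC to 0.23 for TH, so a mean over them hides opposite signs. The mean level of the 5 ran from 7.27 to 7.71 in SDPS pools, 7.59 to 7.75 in LDPS pools and 7.4 to 7.74 in LDPR pools, and these ranges overlapped.

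By Pearson correlation over the 12 pool levels, among 4950 genes, the genes most like TH were GPR137B (0.913), COLEC12 (0.907) and PRMT7 (0.877). Those most like DBH were MKL2 (0.945), OCRL (0.92) and AK3L2 (0.918). For GCH1 they were PGBD5 (0.945), GPATC3 (0.933) and PRPF3 (0.914), for PTS AD012W (0.959), CBLN4 (0.949) and SLC1A2 (0.939), and for QDPR SULF2 (0.947), PRDX1 (0.933) and C10orf7 (0.926). The pools share arrays and dyes, so these values describe likeness of levels on 6 arrays. No member was among the 3 genes most like another.

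TH in LDPS against SDPS was positive in 20 of 20 settings, from 0.15 to 0.28, with an unadjusted p under 0.05 in 9. In LDPR against SDPS it was positive in 20 of 20, from 0.11 to 0.32, also with an unadjusted p under 0.05 in 9. The long-day mean of TH was positive in 19 of 19 settings, from 0.14 to 0.28, with an unadjusted p under 0.05 in 16. Without the array of SDPS pool 3 and LDPR pool 1 it was 0.201, with an unadjusted p of 0.103. DBH in LDPR against LDPS was negative in 21 of 21 settings, from -0.54 to -0.34, with an unadjusted p under 0.05 in 20. QDPR was positive in 21 of 21, from 0.19 to 0.38, with an unadjusted p under 0.05 in 19. Without a dye intercept DBH stayed at -0.422, but with an unadjusted p of 0.102 and a limma adjusted p of 0.744. All settings refit the same arrays and some leave the estimate unchanged, so these sign counts are not independent evidence. When spots with a quality mark of 0 were also left out, TH kept 3 arrays and could not be fitted, and the ratios left were 0.26 for LDPS to SDPS, 0.20 for LDPR to SDPS and 0.12 for LDPR to LDPS.

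**Figure D4:**
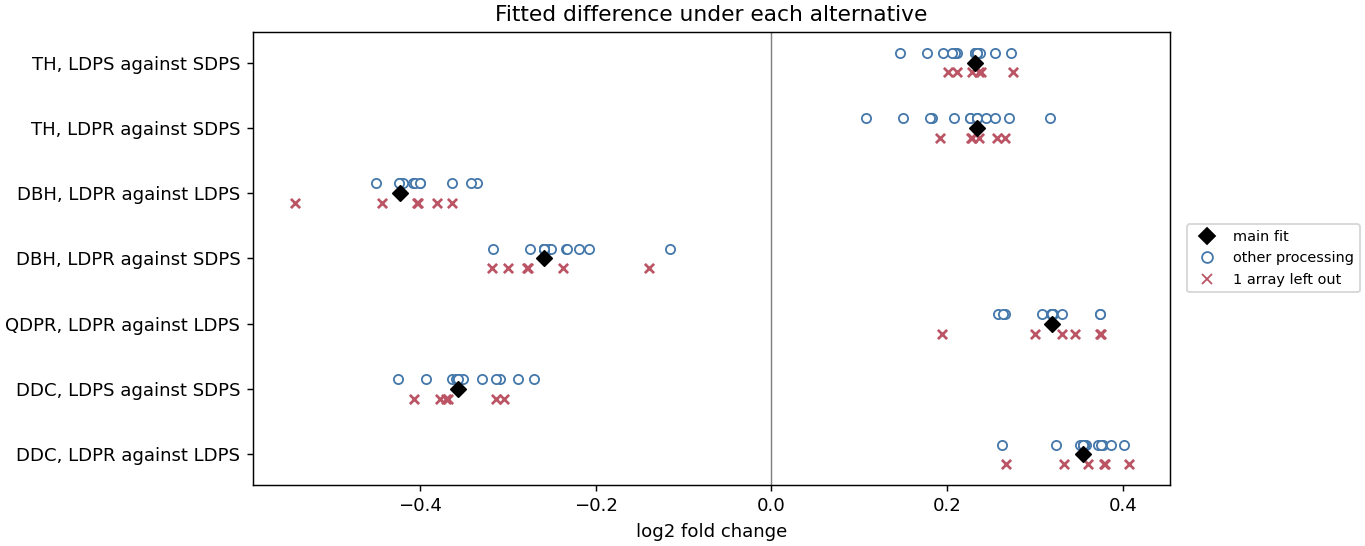
Fitted log2 fold change (x axis) of TH, DBH, QDPR and DDC in 7 comparisons (y axis) in the main fit (diamonds), under other processing (circles) and with 1 array left out (crosses). All points of a row lie on 1 side of 0; for DBH in LDPR against SDPS they reach -0.12, and for QDPR 0.19.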

How the data were processed

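Per the file headers, the authors quantified the spots in BlueFuse for Microarrays, version 3.6 and build 7145. Their deposited intensity gives each spot 1 amplitude in each dye, and no background is listed. The deposited files of 2 samples that shared an array were identical, so each array was read once. Spots with a deposited confidence score under 0.1 were treated as missing, and probes on at least 5 arrays were tested. Log2 ratios were loess-normalised within arrays (span 0.3, 4 iterations) and fitted with limma 3.58.1 in R 4.3.3, with 3 groups and a dye intercept. P-values were adjusted by Benjamini-Hochberg over 18012 probes, threshold 0.05. Tests had up to 3 residual and 6.64 prior degrees of freedom. They measure the spread of pools and arrays together, since each pool was on 1 array. For the levels, the mean log2 intensities of the spots were quantile-normalised between arrays (Aquantile), which left the ratios within arrays unchanged. The authors' deposited log2 value table, with column medians of 7.435 to 7.578, was an alternative. All 12 of its columns correlated best with their own dye's channel, and its normalisation and centring are unknown. The fit was tested on simulated data.

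The members, lists and contrasts were chosen with earlier results of these data known. All 5 members were named, list genes at an unadjusted p under 0.05, and the 3 genes most like each member. Some genes that this rule chose are not reported here.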

Additional observations from a re-analysis of the deposited data

Results flagged for a closer look

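In 2 of 15 groups of 4 pools, 1 pool stood apart from the others by the gap between it and its nearest neighbour. DBH in LDPR pool 3 was at a level of 7.46, against 6.87 to 6.94 in the other LDPR pools, and the gap was 0.881 of the group's range. PTS in SDPS pool 3 was at 9.72, against 9.16 to 9.25 in the other SDPS pools, and the gap was 0.838 of the range. The threshold was 0.829, which chance exceeds in about 1 in 20 groups. LDPR pool 3 was on the array quantified on a later day, and was labelled with Alexa Fluor 647, the dye in which the DBH probe was brighter. LDPR pool 1 carried the same dye and had the lowest DBH level of its group, at 6.87. The cause of the gap was not tested.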

How the results depend on the processing

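No member passed after adjustment except with the channels fitted separately. DBH in LDPR against LDPS was then at -0.449 (limma adjusted p = 0.0396), and 1 member was called, among 560 of 16748 probes. The main fit called 3 of 18012. With a replicate block added, DBH was at -0.419 (limma adjusted p = 0.0381), QDPR at 0.374 (limma adjusted p = 0.0281), TH at -0.068 and PTS at 0.002. In that fit 2 members were called, among 1042 probes. The numbers gave no clear pairing of the pools. Deviations of same-numbered pools correlated above 0.1 in 6 of 12 pairs. They were at 0.337 to 0.721 for 4 pairs on 1 array and at -0.44 to 0.267 for the other 8. Levels carry the brightness of the spot on the array, so this check cannot exclude a pairing.

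The TH difference in LDPR against LDPS, at 0.002, changed sign with print-tip loess (-0.029), scaling between arrays (-0.028), direct arrays alone (-0.034), a stricter confidence minimum of 0.3 (-0.025), separate channels (-0.027) and array weights (-0.018), the last chosen after seeing the data. Small differences of other members also changed sign. QDPR in the long-day mean was at -0.065 with print-tip loess and -0.006 with scaling, which put GCH1 in LDPR against SDPS at 0.065 and DBH in the long-day mean at 0.053. With direct arrays alone PTS was at 0.044 in LDPR against LDPS and -0.068 in LDPR against SDPS. The cause was not tested.

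With 1 array left out, ranges crossed 0 for TH in LDPR against LDPS (-0.019 to 0.064), for GCH1 in LDPS against SDPS (-0.017 to 0.22), LDPR against SDPS (-0.14 to 0.026) and the long-day mean (-0.08 to 0.10), and for PTS in LDPS against SDPS (-0.02 to 0.14), LDPR against SDPS (-0.021 to 0.12) and the long-day mean (-0.02 to 0.13). In the long-day mean they also did for DBH (-0.078 to 0.042) and QDPR (-0.053 to 0.068).

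The count of probes called was the least stable value. In LDPR against LDPS it was 3, against 17 with print-tip loess, 23 with scaling, 10 with the stricter minimum, 560 with separate channels, 1042 with the replicate block, 0 without a dye intercept, with direct arrays alone or with all spots kept, and 0 to 14 with 1 array left out. In LDPS against SDPS it was 0, against 1 with print-tip loess, scaling, an offset of 50 or the stricter minimum, 5 with separate channels, 26 with the block and 0 to 1 with 1 array left out. In LDPR against SDPS it was 0, against 1 with scaling, 50 with separate channels, 13 with the block and 0 to 15 with 1 array left out. For the long-day mean it was 0, against 2 with separate channels and 0 to 1 with 1 array left out. Each member had 1 probe, so other probes of a gene gave no alternative. The number of arrays limits the precision, and for TH so does a signal near that of empty spots.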
